A study of Mus musculus with 6 samples.

Results

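Transcripts of 7 chemokine receptors (*Ccr1*, *Ccr2*, *Ccr9*, *Cxcr3*, *Cxcr4*, *Cx3cr1* and *Ackr3*) were followed across the leukocytes of the mouse peritoneal cavity. The 7 genes were chosen by name out of 55538 listed features, and none of them was used to sort the cells. Of 7760 cell barcodes, 7665 passed the quality filter, and cells were sorted by summed UMIs (unique molecular identifiers, each standing for 1 captured transcript) of other genes. The B cell rule (*Cd79a* and *Cd79b*, at least 4 UMIs) held for 3101 cells and the T/NK rule (*Cd3d*, *Cd3e* and *Nkg7*, at least 2) for 667. The macrophage (MΦ) rule (*Csf1r*, *Adgre1* and *Fcer1g*, at least 2, with at most 2 B cell and at most 1 T/NK UMIs) held for 2773. MΦs with *Gata6* and no *Irf4* UMI numbered 635, those with *Irf4* and no *Gata6* UMI 255, those with both 22 and those with neither 1861. GATA6 maintains large peritoneal MΦs (LPMs), and IRF4 is needed for small peritoneal MΦs (SPMs).

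Resident cells were lavaged from adult C57BL/6 mice that were MerTK +/+ or MerTK -/- (whole-body loss of MerTK, a receptor for the uptake of apoptotic cells), and cells of 3 mice were pooled in each library. In both genotypes the adherent cells received either fresh medium (control) or an excess of UV-killed GFP-Jurkat cells, a human T cell line, for 2 h or 6 h, so 6 libraries were made with 1 per genotype and condition. The number that ends each barcode was not matched to a sample, so genotypes and time points were not compared, and values are given for the pooled cells and for library numbers 1 to 6. Cells of 1 library are not replicates, so no p-value is given, and intervals (95%, exact Poisson for levels, exact conditional for ratios, Clopper-Pearson for shares) cover counting error only.

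Chemokine receptors are G protein-coupled receptors that steer leukocytes along gradients of small secreted proteins, the chemokines. CCR1 binds CCL3, CCL5, CCL6 and CCL9, CCR2 binds CCL2, CCL7 and CCL12 and takes monocytes out of the bone marrow, CCR9 binds CCL25 and homes lymphocytes to the gut, and CXCR3 binds CXCL9 and CXCL10 on activated T cells and NK cells. CXCR4 and the atypical receptor ACKR3 both bind CXCL12, but ACKR3 takes up its ligand without signalling through G proteins. CX3CR1 binds fractalkine and marks many tissue MΦs and patrolling monocytes. In GRCm38 (GENCODE vM21) all 7 genes are protein-coding. *Ccr1* (chr9:123962124-123968692, minus strand), *Ccr2* (chr9:124101950-124113557, plus) and *Ccr9* (chr9:123678439-123784330, plus) lie close together, *Cx3cr1* (chr9:119901616-120069879, minus) lies on the same chromosome, *Cxcr4* (chr1:128588199-128592293, minus) and *Ackr3* (chr1:90203980-90216751, plus) on chromosome 1 and *Cxcr3* (chrX:101731535-101734269, minus) on X.

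Depth was between 4234786 and 10287079 UMIs per library, with a median per barcode from 2776 (library number 6) to 5786.5 (number 1). A total of 28 barcode sequences occurred in 2 libraries, none with the same counts. Markers that the rules did not use lay mostly in their own class, *Lyz2* and *Cd14* in MΦs, *Ms4a1* in B cells and *Cd3g* and *Tcf7* in T/NK cells. At least 2 UMIs of the 7 MΦ markers (*Csf1r*, *Adgre1*, *Fcer1g*, *Cd68*, *Lyz2*, *Cd14* and *Mertk*) were held by 7.71% of B cells and 9.30% of T/NK cells. Both the B and the T/NK rule held for 153 cells, which count in both classes here. Their median depth was 10045 UMIs, against 2813.5 in T/NK cells of 1 rule (those outside the B cell rule). They held 1616100 of the 3434692 UMIs of T/NK cells, so pooled T/NK levels weigh them heavily. T/NK cells numbered from 24 to 247 per library. No rule held for 1277 cells.

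The 7 receptors split along the classes. *Ccr1*, *Ackr3* and *Cx3cr1* were highest in MΦs, *Cxcr3* in T/NK cells and *Ccr9* in B cells, while *Ccr2* was shared by T/NK cells and MΦs and *Cxcr4* by all 3 classes. Of all *Ccr1* UMIs 79.7% lay in MΦs, as did 91.5% of *Ackr3* and 92.1% of *Cx3cr1* UMIs, while 67.2% of *Cxcr3* UMIs lay in T/NK cells, 54.2% of *Ccr2* UMIs in MΦs and 29.2% in T/NK cells, and 76.8% of *Ccr9* and 58.1% of *Cxcr4* UMIs in B cells. At least 1 of the 7 was caught in all but 28.0% of MΦs, 63.7% of B cells and 66.1% of T/NK cells. UMIs of exactly 2 of them were seen in 17.96% of MΦs, 6.42% of B cells and 8.25% of T/NK cells.

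**Figure D1:**
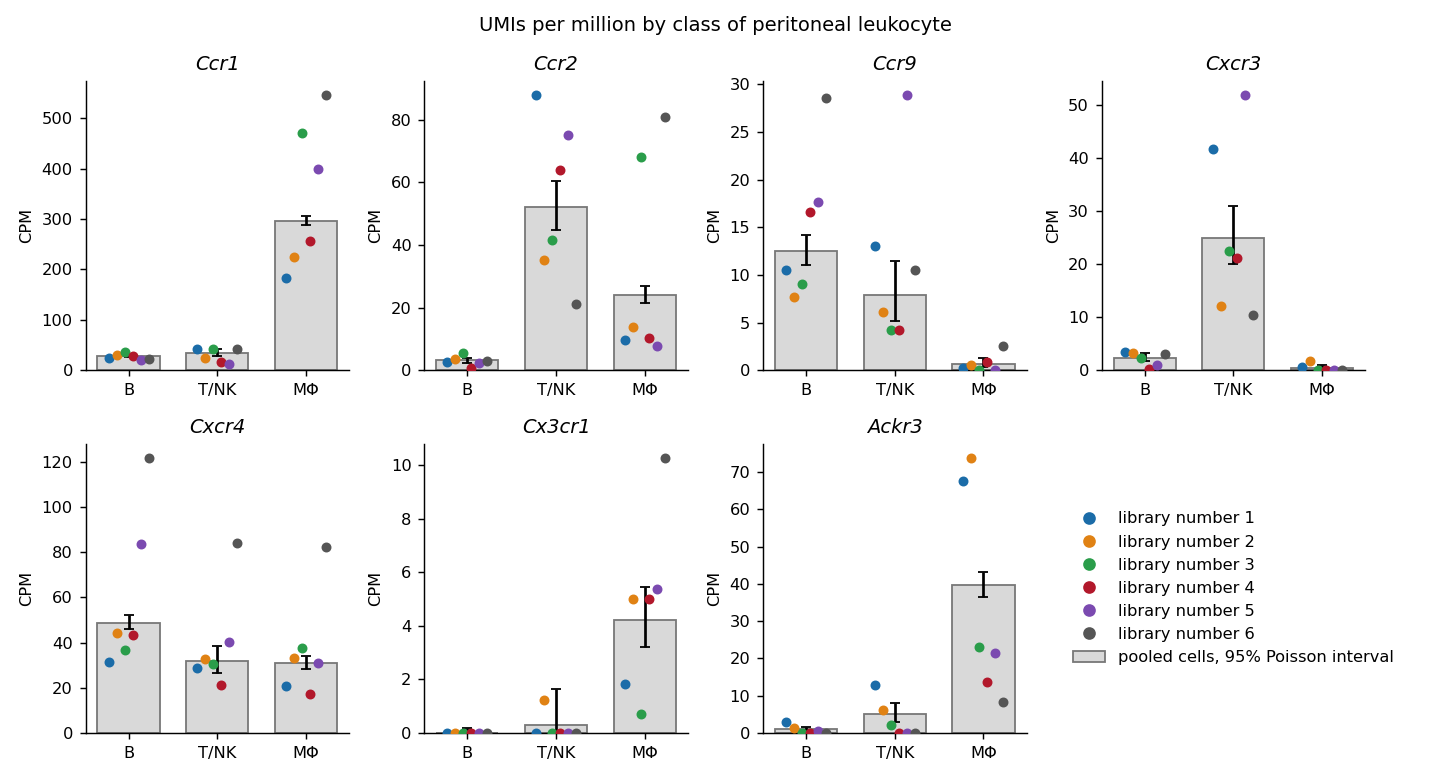
Level of each receptor in UMIs per 1000000 UMIs of the class (CPM, linear axis from 0) in B cells (B), T/NK cells (T/NK) and macrophages (MΦ). Grey bars with 95% Poisson intervals are the pooled cells and coloured points the 6 library numbers. *Ccr1* lies at 183 CPM or more in MΦs of every library and at or below 42.3 CPM in all lymphocytes, and the highest *Cxcr4* point of each class is library number 6.

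*Ccr1* was a MΦ transcript. Its MΦ level was 297 CPM (288–306, where CPM is UMIs per 1000000 UMIs of the class), from 183 in the lowest library through a median of 328 to 547 in the highest. B cells were at 28.4 CPM (26.1–30.8) with libraries between 20.3 and 37.1, and T/NK cells at 34.6 CPM (28.7–41.5) with libraries between 11.6 and 42.3. The lowest MΦ library thus lay above the highest lymphocyte library. A *Ccr1* UMI was caught in 62.5% of MΦs (60.7–64.3%), 12.3% of B cells and 8.55% of T/NK cells, at median depths of 4426, 5561 and 3206 UMIs per cell. With every cell thinned to 1500 UMIs the shares were 33.3%, 3.66% and 2.30%. The MΦ level was 8.56-fold that of T/NK cells (log2 ratio 3.10, 2.84 to 3.37) and 10.5-fold that of B cells (3.39, 3.26 to 3.52), higher in 6 of 6 libraries in both. B and T/NK cells did not differ beyond counting error, with a log2 ratio of T/NK over B cells of 0.29 (-0.01 to 0.58) and 3 libraries each way. With cells of both rules left out the ratio was 0.58 (0.22 to 0.93), again with 3 libraries each way. Under stricter class rules it was -1.92.

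The *Ccr1* UMIs of T/NK cells sat in few cells, and in those of 1 rule MΦ marker UMIs were common. Among T/NK cells of 1 rule, 24 of the 30 with *Ccr1* (80.0%) had at least 2 UMIs of MΦ markers, against 5.37% of the 484 without, and their median depth was 9422.5 against 2749.5 UMIs. The MΦ list includes *Fcer1g*, which NK cells also express. The parts of depth and of *Fcer1g* in this contrast were not tested. With all cells that held at least 2 MΦ marker UMIs left out (a choice made after seeing the data), *Ccr1* was at 14.8 CPM in T/NK cells (43 UMIs) and at 24.0 CPM in B cells (431 UMIs), and the log2 ratio of T/NK over B cells was -0.69. Most of the B cell UMIs thus lay outside such cells. In library numbers 1 to 6, B cells were at 24.1, 30.6, 37.1, 28.4, 20.3 and 21.8 CPM, and MΦs at 183, 224, 470, 256, 399 and 547. The part of free MΦ RNA in these levels was not tested.

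*Ccr2* was split between T/NK cells and a minority of MΦs. T/NK cells held 52.1 CPM (44.8–60.3), with a lowest library at 21.0005, a median of 52.7 and a highest of 88.0. T/NK cells of 1 rule were at 76.4 CPM (64.3–90.2). MΦs held 24.1 CPM (21.6–26.8), and their libraries fell into a low set of 4 (9.67, 13.9, 10.3 and 7.70 CPM in numbers 1, 2, 4 and 5) and a high pair (68.0 in number 3 and 80.9 in number 6). B cells were at 3.13 CPM (2.41–4.01). The log2 ratio of MΦs over T/NK cells was -1.11 (-1.38 to -0.84), but MΦs were lower in only 4 libraries and higher in numbers 3 and 6. Across libraries the ratio ran from -3.29 to 1.95, so the order of these classes was not stable. Without library number 1 the pooled log2 ratio was -0.49. Both were well above B cells, MΦs by 7.69-fold (log2 2.94, 2.55 to 3.36, or 4.28 with cells of both rules left out) and T/NK cells by 16.6-fold (4.06, 3.63 to 4.49), in 6 of 6 libraries each. With cells of both lymphocyte rules left out, the T/NK excess over B cells was 61.4-fold (log2 5.94), since 40 of the 63 *Ccr2* UMIs of B cells lay in them.

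Among T/NK cells, *Ccr2* was densest in cells with NK and γδ T cell genes. In the 11 cells with a UMI of *Ncr1*, *Klrb1c* or *Klre1* and none of *Cd3d* or *Cd3e*, 9 held *Ccr2* (81.8%, 48.2–97.7%) and the level was 440 CPM (279–660). Of these 11 cells 10 also held at least 2 UMIs of the MΦ list, which includes *Fcer1g*, a gene that NK cells also express. CD4 cells of 1 rule were at 49.7 CPM and CD8 cells of 1 rule at 30.04, with a log2 ratio of CD8 over CD4 whose interval spanned 0 (-1.77 to 0.27). With cells of both rules kept, the ratio was -1.15 (-2.02 to -0.34). *Ccr2*-bearing T/NK cells of 1 rule (70 cells) held γδ T cell genes (*Trdc*, *Tcrg-C1*) at 189 CPM against 10.0 in the 444 without, and NK genes at 645 against 46.6. A UMI of *Cxcr6*, a receptor of tissue-lodged lymphocytes, was found in 41.4% of them against 7.66%, and one of *Ccr7*, the lymph node homing receptor of naive T cells, in 12.9% against 52.7%. Thinned to equal depth, the *Cxcr6* shares were 38.1% and 3.51% and the *Ccr7* shares 7.14% and 31.8%. MΦ marker UMIs were also more common in them, with at least 2 in 28.6% against 6.76%, and the part of these in the result was not tested.

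*Cxcr3*, the receptor for interferon-induced CXCL9 and CXCL10, was a T/NK transcript. T/NK cells were at 25.04 CPM (20.03–30.9), with libraries between 10.5 and 52.0 around a median of 21.9. T/NK cells of 1 rule were at 35.2 CPM (27.1–44.9). B cells were at 2.39 CPM (0.319 to 3.502 across libraries) and MΦs at 0.435 CPM, with 6 UMIs in all and 4 libraries at 0. The lowest T/NK library was above the highest B cell library, but it rested on 1 UMI in 24 cells (interval 0.266 to 58.5 CPM). T/NK cells exceeded B cells 10.5-fold (log2 3.39, 2.86 to 3.93) in 6 of 6 libraries, and with cells of both rules left out the log2 ratio was 4.65 (3.97 to 5.36), higher in 5 libraries and lower in 1. They exceeded MΦs 57.5-fold (log2 of MΦs over T/NK cells -5.85, -7.33 to -4.66). Library number 2 held 3 of the 6 MΦ UMIs, and without it this ratio was -6.86 and that of MΦs over B cells went from -2.45 to -3.10. A *Cxcr3* UMI was seen in 10.5% of T/NK cells against 0.216% of MΦs, and in 18.8% of CD4 cells of 1 rule against 8.33% of CD8 cells of 1 rule. The CD8 level was lower in 5 libraries and higher in none (log2 of CD8 over CD4 -1.11, -2.15 to -0.14). With cells of both rules kept, the ratio was -0.85 with an interval that spanned 0 (-1.77 to 0.02), lower in 4 libraries and higher in 1. Of the 41 B cells with *Cxcr3*, 56.1% held at least 2 T cell marker UMIs against 7.22% of the others.

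*Ccr9*, the gut homing receptor, was a low B cell transcript. B cells held 12.5 CPM (11.03–14.2), from 7.71 through a median of 13.5 to 28.6 across libraries. T/NK cells held 7.86 CPM (5.18–11.4) and MΦs 0.653 CPM (0.299–1.24), with 9 UMIs in all MΦs. B cells were thus 19.2-fold above MΦs (log2 of MΦs over B cells -4.26, -5.41 to -3.31) and T/NK cells 12.03-fold (log2 -3.59, -4.86 to -2.46), both in 6 of 6 libraries. The latter log2 ratio was -2.95 without library number 1 and -4.25 without number 6. With cells of both rules left out it was -3.07 (-4.55 to -1.62), on 9 UMIs in MΦs and 10 in T/NK cells. MΦs were then lower in 5 libraries and higher in 1. The share of cells with a UMI was 5.68% in B cells, 2.70% in T/NK cells and 0.288% in MΦs, and 1.50%, 0.614% and 0.112% at equal depth. T/NK cells were below B cells in 4 libraries and above in 2 (log2 -0.67, -1.30 to -0.10), and in 5 of 6 with cells of both rules left out (-1.21, -2.29 to -0.30). Within B cells, those with *Bhlhe41* or *Zbtb32*, which mark B-1 cells, and no *Fcer2a* were at 15.0 CPM. B cells in which *Fcer2a* and these genes were both absent or both present were at 9.84 CPM. The log2 ratio of the former over the latter was 0.61 (0.23 to 1.00), higher in 5 of 6 libraries. *Ccr9*-bearing B cells held B-2 genes at 65.9 CPM against 132 CPM in the other B cells (interval of the log2 ratio -1.31 to -0.71). In CD8 cells *Ccr9* was at 18.7 CPM and in CD4 cells at 3.96 (log2 2.24, 0.61 to 4.28), with 16 and 4 UMIs, 7 of them in 1 CD8 cell. With cells of both rules left out, 4 and 1 UMIs remained (log2 1.89), and the interval spanned 0 (-1.45 to 7.51).

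*Cxcr4* was the receptor with the smallest contrast between classes. B cells were at 48.9 CPM (45.9–52.0), T/NK cells at 32.0 CPM (26.3–38.6) and MΦs at 31.1 CPM (28.3–34.2). Libraries spread from 31.5 to 122 CPM in B cells, from 21.3 to 84.0 in T/NK cells and from 17.1 to 82.2 in MΦs, so the 3 classes overlapped. MΦs and T/NK cells did not differ beyond counting error (log2 -0.04, -0.35 to 0.27), while B cells were 1.57-fold above MΦs in 5 of 6 libraries (log2 of MΦs over B cells -0.65, -0.82 to -0.49) and 1.53-fold above T/NK cells in 6 of 6 (log2 of T/NK over B cells -0.61, -0.91 to -0.32). The T/NK level hung on cells of both rules, which held 77 of its 110 UMIs at 47.6 CPM. T/NK cells of 1 rule were at 18.1 CPM (12.5–25.5), 2.70-fold below B cells of 1 rule (log2 -1.43, -1.98 to -0.93) and 1.72-fold below MΦs (log2 of MΦs over T/NK cells 0.78, 0.27 to 1.34). Library number 6 was the highest in all 3 classes and number 5 was second in both lymphocyte classes, with 83.6 CPM in B cells and 40.5 in T/NK cells. Within B cells the level was 45.4 CPM with *Bhlhe41* or *Zbtb32* and no *Fcer2a*, and 57.9 with *Fcer2a* alone. It was 52.8 CPM in the rest, which held none of these genes or both kinds. The first was below the last in 6 of 6 libraries (log2 -0.22, -0.41 to -0.03).

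*Ackr3*, the scavenging partner of *Cxcr4* for CXCL12, was a MΦ transcript, with its highest level in *Gata6* MΦs. MΦs held 39.6 CPM (36.4–43.1), and the 6 libraries in order of number were at 67.7, 73.9, 23.1, 13.5, 21.5 and 8.35 CPM. Numbers 1 and 2 thus stood well above the others. B cells were at 1.04 CPM with 3 libraries at 0 and T/NK cells at 4.95 CPM with 3 libraries at 0. The MΦ level was 37.9-fold that of B cells (log2 5.25, 4.62 to 5.95) and 8.01-fold that of T/NK cells (3.001, 2.31 to 3.79), in 6 of 6 libraries each. The latter log2 ratio was 2.17 (1.46 to 2.99) with cells of both rules left out, and 5.27 with cells of other-class markers left out, where the T/NK count of 0 is taken as 3. All 15 B cells with *Ackr3* held at least 2 MΦ marker UMIs, against 7.26% of the others. With such cells left out no *Ackr3* UMI remained in 2862 B cells or in 605 T/NK cells, where a count of 0 allows up to 0.167 and 1.03 CPM. Library number 1 held 14 of the 21 B cell UMIs, and without it the log2 ratio of MΦs over B cells was 5.86.

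The promoters of the CXCL12 receptors are shown because the pair was distributed differently, *Cxcr4* over all classes and *Ackr3* mainly over MΦs. Both stretches are the 250 bases before the RefSeq start in GRCm38.p6, for Ackr3 chr1:90203730-90203979 on the plus strand and for Cxcr4 chr1:128592300-128592549 on the minus strand, read 5′ to 3′ towards the gene. Capitals mark TATAAA on the sense strand and GGGCGG on either strand (CCGCCC as read here), which do not overlap.
Ackr3: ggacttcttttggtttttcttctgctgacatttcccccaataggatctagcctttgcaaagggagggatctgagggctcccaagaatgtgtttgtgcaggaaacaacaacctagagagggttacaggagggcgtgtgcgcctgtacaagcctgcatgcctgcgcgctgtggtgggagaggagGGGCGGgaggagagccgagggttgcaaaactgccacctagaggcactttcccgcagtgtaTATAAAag
Cxcr4: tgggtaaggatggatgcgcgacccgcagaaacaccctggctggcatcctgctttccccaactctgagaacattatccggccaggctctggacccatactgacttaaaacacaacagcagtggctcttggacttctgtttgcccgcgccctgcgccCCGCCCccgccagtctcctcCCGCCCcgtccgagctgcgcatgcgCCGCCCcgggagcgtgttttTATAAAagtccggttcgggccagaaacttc
Of 32851 RefSeq promoter windows of this length, 7.59% held TATAAA on the sense strand and 32.7% GGGCGG. In Cxcr4 the TATAAA began 30 bases before the start, and 1.99% of all windows held one beginning 40 to 21 bases before it. The Ackr3 match began 8 bases before the annotated start. Neither window held a GATA factor motif on either strand, searched as NGATAN with A or T first and A or G last, which 26.5% of all windows held. GC content was 54.0% in Ackr3 and 61.2% in Cxcr4, against a median of 52.4%, with 7 and 19 CG pairs.

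*Cx3cr1* was scarce everywhere. MΦs held 58 of the 63 UMIs at 4.21 CPM (3.20–5.44), between 0.723 and 10.3 across libraries, and 1.51% of MΦs held a UMI. T/NK cells held 1 UMI and 3101 B cells none, which allows up to 0.149 CPM. The MΦ level was 28.2-fold the floor of B cells (log2 4.82, taking 3 counts for the 0 over all B cells). With the counting error of the MΦ UMIs included, the lower limit was 22.2-fold (log2 4.47). The ratio to T/NK cells was 14.5-fold with an interval of 1.32 to 9.18 on the log2 scale. The log2 ratio was 3.21 without library number 3 and at least 1.83 without number 2, which held the 1 T/NK UMI.

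**Figure D2:**
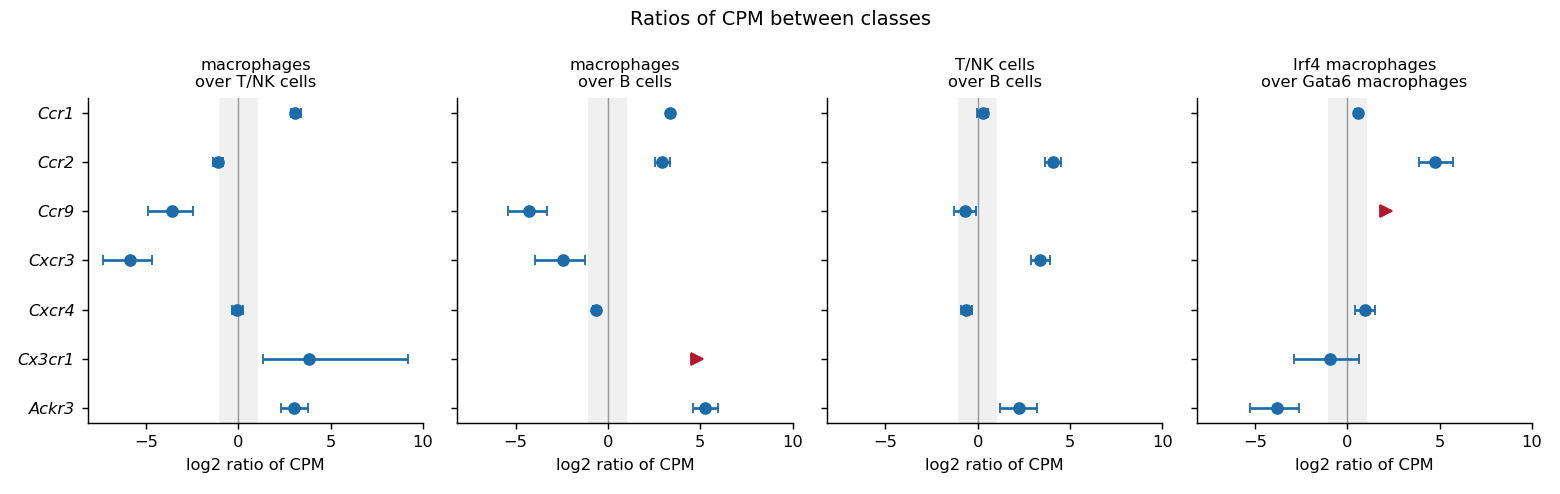
Log2 ratio of CPM for each receptor in the 4 comparisons named above the panels, with exact conditional 95% intervals. The grey band spans 2-fold in either direction and red arrowheads are lower bounds where the second class held no UMI. *Ackr3* lies at 5.25 for MΦs over B cells and at -3.78 for *Irf4* over *Gata6* MΦs, and the 4 *Cxcr4* values lie inside the band.

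Differences past 2-fold between MΦs and lymphocytes were common among all genes, and the members' counts are given beside that background. A difference past 2-fold (log2 ratio past 1 with 1 CPM added, genes with at least 50 UMIs in the pair) was seen for 3 members higher and 2 lower among the 6 testable for MΦs over T/NK cells, where 42.4% of 10480 genes passed in either direction (19.4% higher, 23.0% lower). For MΦs over B cells it was 4 higher and 2 lower of 7, against 42.7% of 12131 genes (17.9% and 24.9%). For T/NK over B cells it was 2 higher and 0 lower of 5, against 10.8% of 11238 genes (6.74% and 4.06%). Cells of both lymphocyte rules count on both sides of this pair, and the shares without them were not computed. For *Irf4* over *Gata6* MΦs it was 1 higher and 1 lower of 4, against 15.7% of 7019 genes (8.12% and 7.61%).

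**Figure D3:**
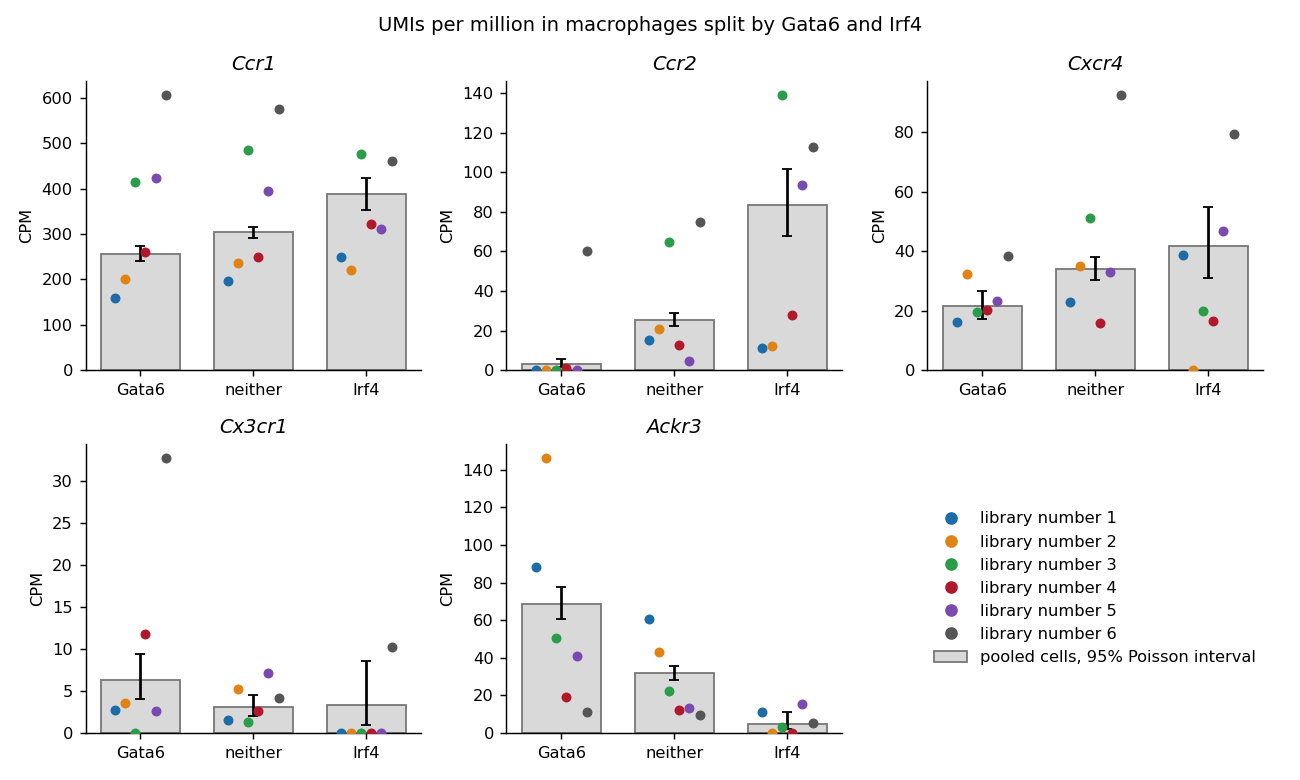
CPM (linear axis from 0) of 5 receptors in *Gata6* MΦs, MΦs with neither *Gata6* nor *Irf4*, and *Irf4* MΦs. Bars with 95% Poisson intervals are pooled cells and points the 6 library numbers. *Ackr3* goes from 68.8 through 31.8 to 5.003 CPM along the 3 groups, while *Ccr2* goes from 3.15 through 25.5 to 83.4.

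Within MΦs, *Ackr3* and *Ccr2* divided the *Gata6* and *Irf4* cells. *Ackr3* was at 68.8 CPM (60.8–77.7) in *Gata6* MΦs, with libraries from 10.9 through a median of 45.8 to 147, and at 5.003 CPM (1.84–10.9) in *Irf4* MΦs, with libraries from 0 to 15.6. The *Gata6* level was 13.8-fold higher (log2 of *Irf4* over *Gata6* MΦs -3.78, -5.24 to -2.64), in 6 of 6 libraries, and also exceeded MΦs with neither gene 2.17-fold in 6 of 6 (log2 1.11, 0.86 to 1.36). Of *Gata6* MΦs 24.9% held a UMI against 2.35% of *Irf4* MΦs, and 10.6% against 0.405% at equal depth. The libraries overlapped between the groups, since *Gata6* MΦs of library number 6 were at 10.9 CPM on 2 UMIs. In *Gata6* MΦs alone, numbers 1 and 2 were again the highest, at 88.3 and 147 CPM, with the others between 10.9 and 50.5. The spread of *Ackr3* between libraries was thus also present within *Gata6* MΦs.

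*Ccr2* was the reverse. *Irf4* MΦs held 83.4 CPM (67.8–101), from 11.1 through a median of 60.6 to 139 across libraries, and *Gata6* MΦs held 12 UMIs at 3.15 CPM (1.63–5.51), with 4 libraries at 0. The log2 ratio was 4.73 (3.86 to 5.73), higher in *Irf4* MΦs in 6 of 6 libraries. Of the 100 UMIs of *Irf4* MΦs, 42 lay in library number 3 and 44 in number 6. The 5 cells with most held 42 of the 100. In numbers 1 and 2 the direction rested on 2 and 1 UMIs against 0. Of the 12 UMIs of *Gata6* MΦs 11 lay in library number 6 and 10 in 1 cell, and there the *Gata6* level was 60.2 CPM against 113 in *Irf4* MΦs. Without that library 1 UMI remained in *Gata6* MΦs and the log2 ratio was 7.97. Weighting the 6 libraries equally gave 2.69. MΦs with neither gene were at 25.5 CPM, again high in numbers 3 and 6 (64.9 and 74.6) and between 4.73 and 21.001 in the others. *Irf4* MΦs were also most numerous in these libraries, with 44 and 113 cells against 14 to 35 in the others.

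*Ccr1*, *Cxcr4* and *Cx3cr1* did not separate the MΦ groups in a stable way. *Ccr1* was at 388 CPM in *Irf4* and 256 in *Gata6* MΦs (log2 0.60, 0.44 to 0.76), higher in 4 of 6 libraries, and with libraries weighted equally the log2 ratio was -0.018, so its direction turned. *Gata6* MΦs ran from 159 to 607 CPM and *Irf4* MΦs from 220 to 477 between libraries. *Cxcr4* was at 41.7 and 21.5 CPM (log2 0.95, 0.42 to 1.48), higher in *Irf4* MΦs in 4 of 6 libraries. Without library number 6, which held 31 of the 50 UMIs of *Irf4* MΦs, the ratio was 0.18. *Cx3cr1* was at 3.34 and 6.31 CPM with an interval that spanned 0 (-2.91 to 0.62), and *Ccr9* held 4 UMIs in *Irf4* MΦs and none in *Gata6* MΦs. *Cxcr3* had 1 UMI in each.

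**Figure D4:**
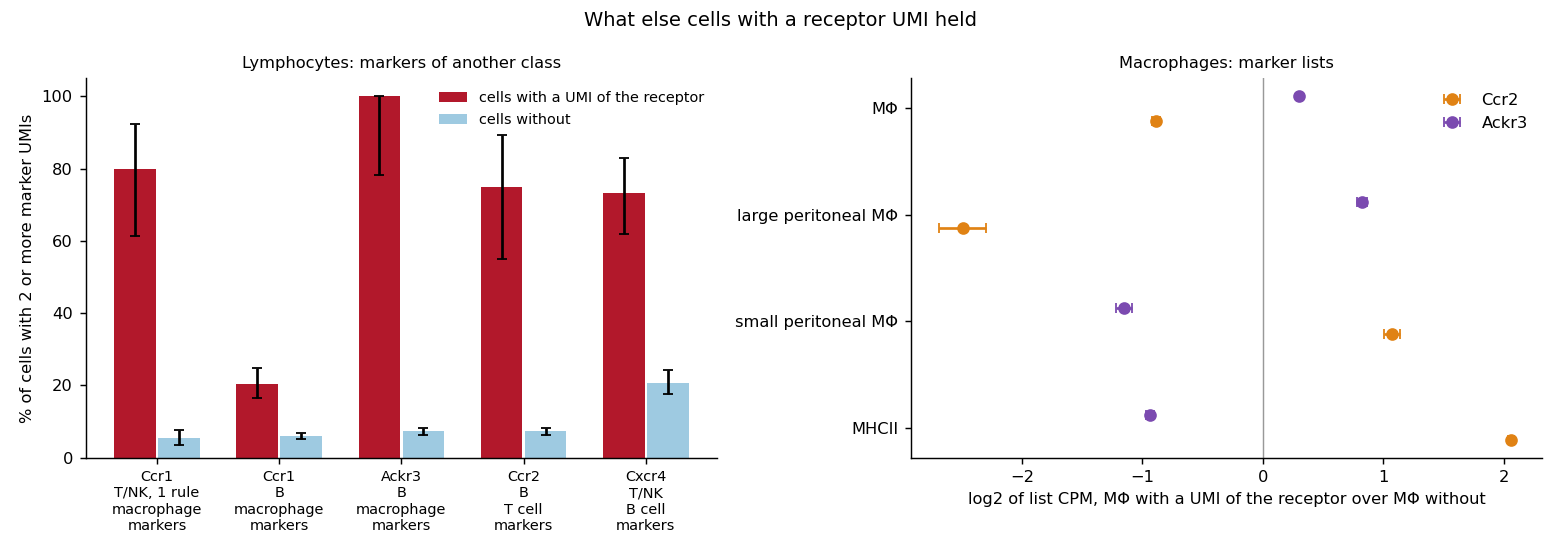
Left, percent of lymphocytes with at least 2 UMIs of another class's markers among cells with (red) and without (blue) a UMI of the receptor named under the bars, with 95% Clopper-Pearson intervals. Right, log2 ratio of the summed CPM of 4 marker lists in MΦs with a UMI of *Ccr2* or *Ackr3* over MΦs without one, with exact 95% intervals, where *Ccr2* lies at -2.49 and *Ackr3* at 0.83 for the LPM list.

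The MΦs that held each receptor differed in the same sense in the summed UMIs of marker lists, which include *Gata6* and *Irf4*. Single genes of the lists are not given. The 136 *Ccr2*-bearing MΦs had LPM markers (*Gata6*, *Timd4*, *Icam2*, *Selp*, *Prg4*, *Alox15*, *Vsig4*) at 345 CPM against 1937 in the 2637 without *Ccr2* (log2 -2.49, -2.69 to -2.30), SPM markers (*Irf4*, *Fcrls*, *Lyz1*, *Ear2*, *Cd226*, *Itgax*) higher by 1.07 (1.01 to 1.14) and MHCII genes (*H2-Ab1*, *H2-Aa*, *H2-Eb1*, *Cd74*) by 2.06 (2.03 to 2.08). The 350 *Ackr3*-bearing MΦs had LPM markers higher by 0.83 (0.79 to 0.87), SPM markers lower by log2 -1.15 (-1.22 to -1.08) and MHCII genes lower by log2 -0.94 (-0.97 to -0.91). Median depth was 4075.5 against 4468 UMIs per cell for *Ccr2* and 6068 against 4231 for *Ackr3*, and the part of depth in the *Ackr3* ratios was not tested. Of the *Ccr2*-bearing MΦs 28 came from library number 3 and 44 from number 6. Of the *Ackr3*-bearing MΦs 171 came from number 1 and 81 from number 2. The part of library in these ratios was not tested. Only 3 MΦs held both receptors, which is 2.21% of *Ccr2*-bearing and 0.857% of *Ackr3*-bearing cells.

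Part of the *Ccr2* MΦs carried lymphoid transcripts. At least 2 NK marker UMIs were found in 12 of the 136 (8.82%) against 0.265% of the other MΦs, and at least 2 T cell marker UMIs in 9 (6.62%) against 0.683%. Leaving out MΦs with either (a choice made after seeing the data) lowered *Ccr2* to 20.7 CPM (282 of 332 UMIs). Dendritic cell markers were seen at 18.7 against 13.9 CPM, with an interval of the log2 ratio that spanned 0. In GENCODE vM21, *Ccr9* transcripts shared 1.66% of their 98-base windows with *Gm17200*. Where reads fell along the transcripts was not examined, so the share of reads affected was not tested. *Ccr9* overlapped 6 annotated genes, and *Cx3cr1* overlapped 9, of which 3 lay on its own strand. *Ccr1*, *Cxcr3*, *Cxcr4* and *Ackr3* shared no window and overlapped no gene.

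Other chemokine receptors were measured beside the members. Of 17 listed, 6 could be tested for MΦs over B cells, 2 of them higher past 2-fold and 4 lower (17.9% and 24.9% of all genes tested), with a median log2 ratio of -1.82 against -0.24 over all genes tested. *Ccr7* was at 211 CPM in T/NK cells, 95.5 in B cells and 25.6 in MΦs. *Ccr6*, a B cell and Th17 receptor, was at 85.8, 49.8 and 0.726 CPM in B cells, T/NK cells and MΦs. *Ccrl2*, an atypical receptor that presents chemerin, was at 121 CPM in MΦs, and at 30.02 in *Irf4* against 116 in *Gata6* MΦs (log2 -1.95, -2.48 to -1.46).

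Transcripts of the members' ligands were also measured. All 6 ligands, of 13 listed, that were testable between the MΦ groups were higher in *Irf4* MΦs past 2-fold (against 8.12% of all genes tested, median log2 2.10 against 0.06). The CCR1 ligand *Ccl9* was at 5942 CPM in *Irf4* and 522 in *Gata6* MΦs (log2 3.51, 3.44 to 3.58), *Ccl6* at 3410 and 789 (2.11, 2.04 to 2.18) and *Ccl3* at 2583 and 744 (1.80, 1.72 to 1.87). Directions by library are not given for these ligands or for *Ccrl2*. Library number 6 gave 113 of the 255 *Irf4* MΦs and 55 of the 635 *Gata6* MΦs. The part of library in these ratios was not tested. *Ccl5* was a T/NK transcript at 1093 CPM, against 62.0 in B cells and 67.0 in MΦs. *Cxcl12*, the ligand of *Cxcr4* and *Ackr3*, had 16 UMIs in all kept cells.

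Signalling genes downstream of the receptors were present in every class. Of 22, all testable for MΦs over B cells, 8 were higher and 6 lower past 2-fold (against 17.9% and 24.9% of all genes tested, median log2 0.51 against -0.24). For T/NK over B cells 1 of 21 was higher and none lower, against 6.74% and 4.06%, with cells of both rules counted on both sides. *Rac2*, the haematopoietic Rac GTPase, was at 546 CPM in B cells, 536 in T/NK cells and 112 in MΦs. *Gnai2*, the main Gi subunit of leukocytes, was at 250, 277 and 356 CPM. *Gnb1*, a β subunit released by Gi, was at 117, 92.3 and 242 CPM. Between the MΦ groups 4 of 18 were higher in *Irf4* and 2 higher in *Gata6* MΦs past 2-fold, against 8.12% and 7.61% of all genes tested. *Rgs1*, which shortens Gi signals, was at 782 CPM in *Irf4* and 131 in *Gata6* MΦs (log2 2.58, 2.42 to 2.74). Its direction by library is not given.

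Over 30 profiles (5 groups of cells in 6 libraries, which share library and depth), the genes most like *Ccr1* in log2(CPM + 1) among 9270 were *Cndp2*, *Ctsl* and *Litaf* (Pearson r 0.97 each). For *Ackr3* they were *Lrg1*, *Hdc* and the complement gene *C3* (0.92, 0.91 and 0.90), for *Ccr2* *Il7r*, *S100a10* and *Evl* (0.93, 0.82 and 0.82), for *Ccr9* *Trp53i11*, *Prr5* and *Fam167a* (0.89 each) and for *Cxcr4* *Zdhhc13*, *Cse1l* and *Cybc1* (0.89, 0.87 and 0.87). *Cxcr3* and *Cx3cr1* had under 200 UMIs in these profiles and were not compared.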

How the data were processed

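Single-cell 5′ RNA-seq libraries were made on the 10x Genomics platform, 1 per genotype and condition. The deposited table held raw UMI counts, which the authors obtained by aligning reads to the human and mouse genomes (hg38 and mm10) with Cell Ranger. The submitters' processing notes name Cell Ranger 2.2 and Seurat 3.0, and the annotation is not given in the sources used here. Barcodes were kept with at least 500 genes, a log gene to log UMI ratio of at least 0.8 and at most 10% mitochondrial UMIs. All 7760 barcode columns carried a library number only and were used as 1 pooled sample.

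UMIs were summed per class and divided by the class total (CPM). Scrublet in scanpy 1.11.5 called 47 doublets (0.606% of barcodes), which were kept. Only 2 of them were cells of both lymphocyte rules. Intervals came from scipy 1.17.1. A count of 0 was set to 3 for bounds, and cells were thinned to 1500 UMIs for shares at equal depth, leaving out 313 shallower cells. Ratio scripts were tested on simulated data. Named genes were the 4 of each list with the highest CPM in any class. 1 of them is not reported here. Promoter windows came from RefSeq (7 of 7 members matched), and positions and shared windows from GENCODE vM21. The members, lists and rules were chosen with earlier results of these data known. Alternatives were other filters, class rules, weights, thinning, splits and the libraries left out in turn.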

Additional observations from a re-analysis of the deposited data

Results flagged for a closer look

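In 10 of 35 sets of values for 6 libraries, 1 library stood apart from the rest by Dixon's criterion. A set at 0 in all 6 libraries could not meet it, and a set with UMIs in only 1 library always does. No rate expected by chance is therefore given. Several of the 10 sets rest on 1 UMI. Library number 6 stood apart in most of the 10 sets, with *Ccr2* in *Gata6* MΦs at 60.2 CPM (next 1.07), *Ccr9* in MΦs at 2.57 CPM (next 0.883), *Cxcr4* in MΦs at 82.2 CPM (next 37.6), *Cxcr4* in T/NK cells at 84.0 CPM (next 40.5) and *Cx3cr1* in *Gata6* MΦs at 32.8 CPM (next 11.8). The first of these rested on 11 UMIs in 2 cells and the last on 6 UMIs in 1 cell. In the same library *Cx3cr1* in *Irf4* MΦs was at 10.3 CPM, with the others at 0. Library number 5 stood apart for *Ccr9* in T/NK cells at 28.9 CPM (next 13.0). Library number 1 stood apart for *Cxcr3* in *Gata6* MΦs at 0.674 CPM and in *Irf4* MΦs at 5.53 CPM, each 1 UMI with the others at 0. Library number 2 stood apart for *Cx3cr1* in T/NK cells at 1.22 CPM, also 1 UMI.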

How the results depend on the processing

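Of 246 log2 ratios recomputed under other choices, 187 stayed within the 95% interval of the value reported, 58 left it and 1 turned its direction although its interval excluded 0, and the causes were not tested. The turned one was *Ccr1* in *Irf4* over *Gata6* MΦs, at -0.018 with equal weight of libraries. With stricter class rules, the log2 ratios that moved for MΦs over T/NK cells were Ccr1 5.43, Ccr2 -2.36, Cxcr3 -7.92 and Cx3cr1 0.16, for MΦs over B cells were Ccr2 6.02, Cxcr4 -0.94, Cx3cr1 4.13 and Ackr3 7.44, for T/NK over B cells were Ccr1 -1.92, Ccr2 8.39, Cxcr3 5.11 and Cxcr4 -1.19, for Irf4 over Gata6 MΦs were Ccr1 0.85 and Ccr2 7.13. With cells of both lymphocyte rules left out, the log2 ratios that moved for MΦs over T/NK cells were Ccr1 2.79, Ccr2 -1.67, Cxcr4 0.78 and Ackr3 2.17, for MΦs over B cells were Ccr2 4.28, for T/NK over B cells were Ccr1 0.58, Ccr2 5.94, Cxcr3 4.65 and Cxcr4 -1.43. With 47 called doublets left out, the log2 ratios that moved for MΦs over B cells were Ackr3 6.16. With cells holding at least 2 markers of another class left out (chosen after seeing the data), the log2 ratios that moved for MΦs over T/NK cells were Ccr1 4.33 and Ackr3 5.27, for MΦs over B cells were Ccr1 3.63 and Ackr3 7.90, for T/NK over B cells were Ccr1 -0.69. This filter took out every B cell with Ackr3, so the B cell count of 0 behind 7.90 was fixed by it. With equal weight of libraries, the log2 ratios that moved for MΦs over T/NK cells were Ccr1 3.54 and Ccr2 -0.77, for MΦs over B cells were Ccr1 3.68 and Ccr2 3.43, for Irf4 over Gata6 MΦs were Ccr2 2.69. With equal weight of cells, the log2 ratios that moved for MΦs over T/NK cells were Ccr1 4.10, Cxcr4 0.61 and Ackr3 3.81, for MΦs over B cells were Ccr1 3.68 and Ccr2 3.60, for T/NK over B cells were Ccr1 -0.43, Ccr2 4.82 and Cxcr4 -1.24. With cells thinned to 1500 UMIs, the log2 ratios that moved for MΦs over T/NK cells were Ccr1 4.34, Cxcr4 0.82, Cx3cr1 0.62 and Ackr3 4.28, for MΦs over B cells were Ccr1 3.63, Cx3cr1 2.85 and Ackr3 6.52, for T/NK over B cells were Ccr1 -0.71, Ccr9 -1.38, Cxcr3 4.64 and Cxcr4 -1.35. With the split at 2 UMIs, the log2 ratios that moved for Irf4 over Gata6 MΦs were Ccr1 0.79 and Ccr2 3.68. With the split by marker lists, the log2 ratios that moved for Irf4 over Gata6 MΦs were Ccr9 0.62, Cx3cr1 0.79 and Ackr3 -6.51. Thinning lowered the shares of cells with a UMI, to values in B cells Ccr1 3.66%, Ccr2 0.392%, Ccr9 1.5%, Cxcr3 0.229%, Cxcr4 7.44% and Ackr3 0.0653%, in T/NK cells Ccr1 2.3%, Ccr2 7.53%, Ccr9 0.614%, Cxcr3 5.07%, Cxcr4 2.92%, Cx3cr1 0% and Ackr3 0.307%, in MΦs Ccr1 33.3%, Ccr2 2.64%, Ccr9 0.112%, Cxcr3 0.0743%, Cxcr4 4.94%, Cx3cr1 0.446% and Ackr3 5.13%. Leaving out each library in turn turned the sign of 1 ratio, *Cxcr4* in MΦs over T/NK cells, whose interval spans 0 (0.13 without number 1 and 0.12 without number 4), and the ratios that left their interval ran for MΦs over T/NK cells Ccr1 2.94 to 3.41 and Ccr2 -1.65 to -0.49, for MΦs over B cells Ccr1 3.20 to 3.55, Ccr2 2.42 to 3.20, Cxcr4 -0.83 to -0.48 and Cx3cr1 4.43 to 4.75, for T/NK over B cells Ccr2 3.69 to 4.59, for Irf4 over Gata6 MΦs Ccr1 0.37 to 0.73, Ccr2 4.22 to 7.97 and Cxcr4 0.18 to 1.18. Shares that did so ran in B cells Cxcr4 21.7% to 25.3% and Ackr3 0.25% to 0.582%, in T/NK cells Cx3cr1 0% to 0.238%, in MΦs Ccr1 60.8% to 64.4%, Ccr2 4.08% to 5.57%, Cxcr4 10.3% to 13% and Ackr3 8.5% to 15%. A count of 0 was read as 3, so values that rest on one are bounds. No paired analysis was possible because the library numbers were not matched to samples and no test was run.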

Other observations

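The 1277 cells that met no class rule also held receptor transcripts. *Cxcr4* was at 57.3 CPM (50.4–64.9) in them, *Ccr1* at 92.2 CPM (83.4–102), *Ccr2* at 18.4 CPM (14.6–22.9) and *Ccr9* at 13.3 CPM (10.1–17.2). Their median depth was 2735 UMIs per cell, and 333 of them held at least 2 UMIs of the MΦ list.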
